A study of Neogale vison with 6 samples.

Results

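The 10 genes described here belong to the actin cytoskeleton and its control by serum response factor (SRF), and they were followed through cholesterol depletion (CD) of Mv1Lu cells. They are SRF itself, the actins ACTB (β-actin) and ACTA2 (smooth muscle α-actin), the filament-binding proteins TPM1, TAGLN, CNN1 and CALD1, the myosin light chain MYL9, and the crosslinkers ACTN1 and ACTN4. The genes were picked by symbol, and all 10 of 10 symbols were found, each once, among the 24526 genes of the count table. All 10 passed the filter on low counts, which kept 12148 genes for testing. CNN1 passed it only through the CD libraries and TAGLN only through the control libraries, and a gene that passes in this way had to differ between the groups.

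Mv1Lu is a cell line from mink lung that the labels describe as epithelial, and its polyadenylated RNA was sequenced. The 3 control libraries came from untreated cells and the 3 CD libraries from cells kept for 16 h in medium that held 10% lipoprotein-deficient serum (LPDS) and 2 added compounds, lovastatin and mevalonate, each at 50 μM. Lovastatin is a statin, a blocker of HMG-CoA reductase, and mevalonate is the product of that enzyme. No group received only the statin, only mevalonate or only LPDS, so their shares in a difference cannot be told apart, and each value below belongs to the treatment as a whole. All 6 libraries share the same cell line. Nothing in the labels says that they came from separate cultures, so the p-values measure the spread between these libraries, which may be technical.

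SRF is a transcription factor that binds a short DNA element in the promoters of many cytoskeletal genes. One class of its cofactors, the myocardin-related transcription factors (MRTF-A and MRTF-B), is held in the cytoplasm by binding to monomeric actin and is released when actin is built into filaments. The pool of free actin, the product of ACTB and its sister genes, is in this way tied to the transcription of the actin genes themselves. The other class, the ternary complex factors such as ELK1, responds to MAP kinase signaling and serves immediate early genes. In smooth muscle, the same SRF targets make up the contractile apparatus.

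The libraries held 13473820 to 18633764 reads assigned to genes, and the deepest exceeded the shallowest 1.38-fold. Values below are CPM, a gene's reads scaled to library size after TMM normalization, and a gene was called when the Benjamini-Hochberg adjusted p (FDR) of the edgeR quasi-likelihood test over all 12148 genes was under 0.05. The CD libraries varied more among themselves than the controls did, with a biological coefficient of variation of 0.214 against 0.0838. The epithelial markers EPCAM and CDH1 were nearly absent, at no more than 0.287 and 0.432 CPM in any library, whereas KRT19, a keratin, stood at 936 ± 66.9 CPM (SD, n = 3) in the control, and the mesenchymal marker VIM (vimentin) stood at 4070 ± 119 CPM. KRT8 and KRT18 carry no entry by symbol. In such bulk RNA, fewer cells of a type and less RNA per cell cannot be told apart.

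Of the 10 genes, 5 were lower in CD (ACTB, TPM1, MYL9, TAGLN and ACTN1), 2 were higher (CALD1 and CNN1) and 3 were not called (SRF, ACTA2 and ACTN4). Leaving aside TAGLN and CNN1, which had to differ to be tested, 4 of the other 8 were lower and 1 was higher. Of all tested genes, 47.7% were called, 22.9% as lower and 24.8% as higher. The CD and control libraries did not overlap for 6 of these other 8 genes (ACTB, TPM1, MYL9, ACTN1, CALD1 and ACTA2), against 58.0% of all tested genes. The median log2 fold change of the 10 genes was −0.42 against 0.06 over all tested genes, and their values spread from −2.69 for TAGLN to 3.20 for CNN1.

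**Figure D1:**
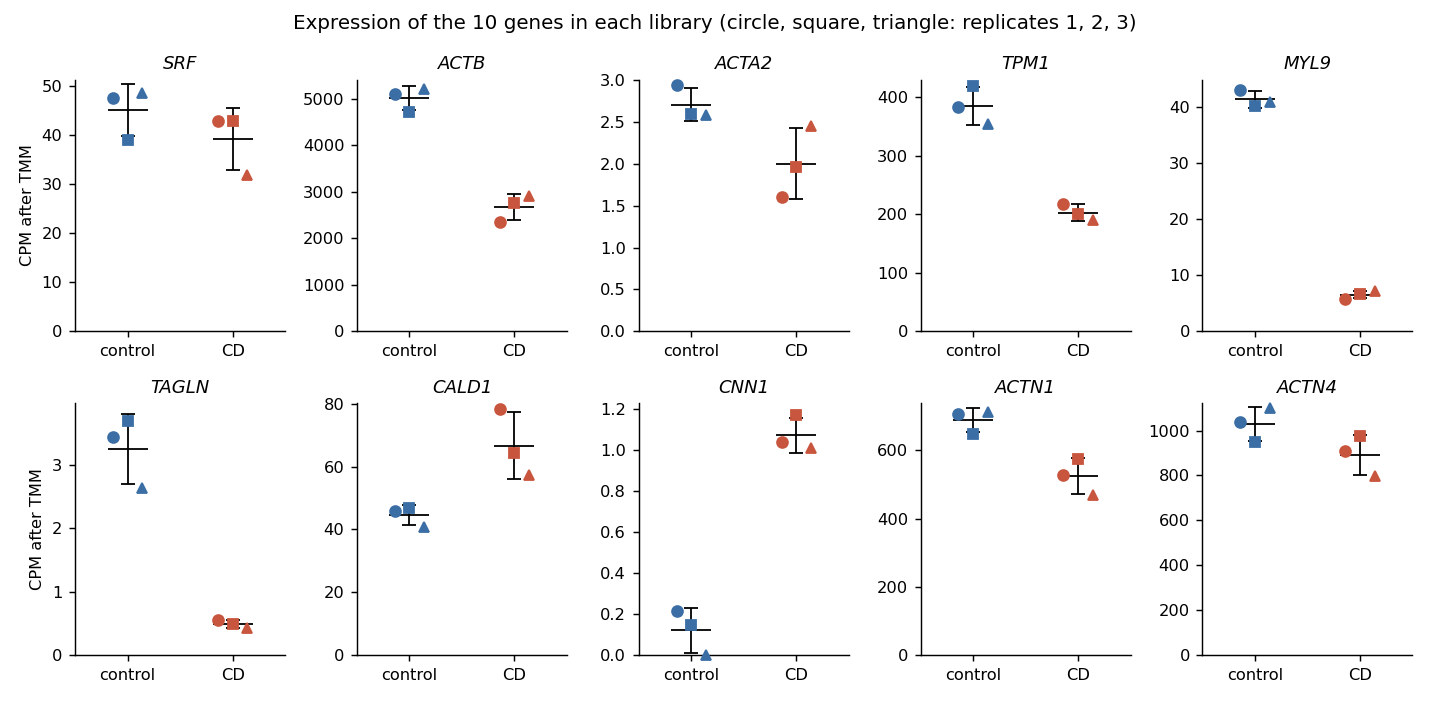
Expression of the 10 genes in each library, in CPM after TMM scaling on axes that start at 0, for 3 control libraries (blue) and 3 CD libraries (orange), with the mean (long line) and SD (whiskers). MYL9 and TAGLN show the widest gaps downward, CNN1 and CALD1 lie above the control, and SRF and ACTN4 overlap between the groups.

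ACTB (ENSNVIG00000005620) encodes the β-actin of non-muscle cells, the main building block of their filaments. It stood at 5100, 4720 and 5210 CPM in control replicates 1, 2 and 3 and at 2360, 2750 and 2910 CPM in CD replicates 1, 2 and 3. Every CD library lay well below every control library, and the gap between the groups was much wider than the spread within either. The means were 5010 ± 257 and 2670 ± 280 CPM (SD, n = 3 each), which is 1.87-fold lower. The log2 fold change was −0.91 ± 0.14 (SE), with an FDR of 0.00043 in the edgeR quasi-likelihood test. ACTB was called in all 14 alternative fits, at an FDR of at most 0.00389.

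ACTB was among the genes with the most reads in these libraries, and its place in that order changed. Gene lengths of the assembly used were not at hand, so the order is one of reads and not of transcript levels. It took 0.502%, 0.484% and 0.507% of all gene reads in the control libraries and 0.248%, 0.274% and 0.28% in the CD libraries. Ranked by count, it was gene number 4, 4 and 3 in control replicates 1 to 3 and number 22, 20 and 25 in CD replicates 1 to 3. These shares scale each library by its own gene reads, so they depend on the other genes as well, and they do not overlap.

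In the study, ACTB was also a measuring stick: it served as the reference gene of the RT-qPCR and its protein as the loading control of the blots. The primer pair given in the study's methods for ACTB is shown because that reference is the gene described here. The primers were not matched to a mink sequence.
ACTB forward: gccatggatgacgatatcgc
ACTB reverse: cattccaccatcacaccct
The forward primer has 20 bases and the reverse primer 19.

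The ratio of 2 counts within a library does not depend on how libraries are scaled, so each gene was also set against ACTB in the same library, as log2 of the ratio of counts with 0.5 added to each. The autophagy genes SQSTM1, MAP1LC3A and GABARAPL2, for which RT-qPCR was run as well, were included for this ratio. SQSTM1, which encodes the autophagy receptor p62, had a log2 ratio to ACTB of −3.02, −2.92 and −2.97 in control replicates 1 to 3 and of 0.22, 0.31 and 0.22 in CD replicates 1 to 3. In the control libraries SQSTM1 reads were thus fewer than ACTB reads, and in each CD library they outnumbered them. The difference of 3.22 ± 0.044 (SE) is 9.30-fold, whereas SQSTM1 scaled by library was 4.98-fold higher. For MAP1LC3A, which encodes an LC3 protein, the ratio to ACTB was 4.48-fold higher and the library-scaled level 2.41-fold higher. For GABARAPL2, of the same protein family, these values were 3.91-fold and 2.11-fold.

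With 3 libraries against 3, the exact two-sided permutation test cannot give a p under 0.1. Of the 15 ratios computed, 14 did not overlap between the groups and reached that smallest p of 0.1 (0.107 after Benjamini-Hochberg adjustment over the 15), so none can pass 0.05 by this test. The exception was TPM1 against ACTB. The 14 include TAGLN to ACTB, CNN1 to ACTB and CNN1 to CNN3, and TAGLN and CNN1 had to differ to be tested. Since ACTB itself separates the groups, a gene that does not, such as SRF or ACTN4, can separate them in its ratio to ACTB. Among all other tested genes, 80.3% did not overlap in this ratio. Of the 7 genes described here that were set against ACTB other than TAGLN and CNN1, 6 did not overlap, a share near that background.

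**Figure D2:**
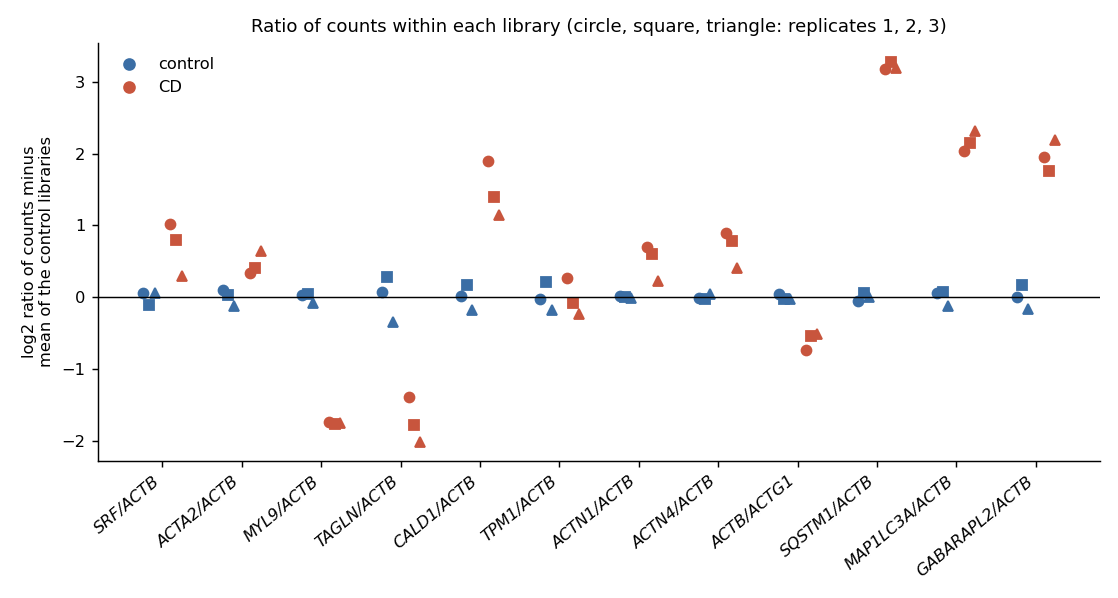
Log2 ratio of 2 genes' counts within each library, minus the mean of that ratio over the control libraries, for 3 control (blue) and 3 CD libraries (orange), with the pairs along the horizontal axis. The ratios of CALD1 and the 3 autophagy genes to ACTB lie above 1 in CD, those of MYL9 and TAGLN below −1, and TPM1 to ACTB lies around 0; the pairs with CNN1 and ACTN1 against ACTN4 are not drawn.

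The other actins had smaller log2 fold changes. ACTG1, which encodes the γ-actin that non-muscle cells make beside β-actin, was found by its description and stood at 4570, 4410 and 4870 CPM in the control and 3640, 3690 and 3820 CPM in CD. All CD libraries were lower, but the log2 fold change of −0.31 ± 0.12 (SE) had an FDR of 0.0609 in the edgeR test and was not called in this fit, and it passed in 3 of 14 alternative fits. The difference between these sister genes was computed within libraries. The log2 ratio of ACTB to ACTG1 was 0.16, 0.10 and 0.10 in control replicates 1 to 3 and −0.62, −0.43 and −0.39 in CD replicates 1 to 3, a change of −0.60 ± 0.075 (SE; exact permutation p = 0.1). Control libraries thus held slightly more ACTB than ACTG1 reads and every CD library fewer. Together they took 0.938% to 0.981% of the gene reads in the control and 0.631% to 0.648% in CD.

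ACTA2 (ENSNVIG00000024367), the actin of smooth muscle and of myofibroblasts, was scarce in these cells, with 36 to 47 reads per control library and 26 to 34 per CD library. It stood at 2.94, 2.60 and 2.59 CPM in the control and 1.60, 1.96 and 2.45 CPM in CD. The groups did not overlap, yet CD replicate 3 came close to the controls. The log2 fold change of −0.44 ± 0.24 (SE) was not called by edgeR (FDR 0.152). Without CD replicate 3 it was −0.63 with an FDR of 0.0488, the only one of 13 alternative fits in which it passed. ACTC1, the cardiac α-actin, was lower at 14.5 against 22.4 CPM (log2 fold change −0.63, FDR 0.00626 by edgeR). ACTA1 had at most 3 reads in a library, and ACTG2, found by its description, had 0 reads in all 6. Actin coding sequences are very similar to each other. Reads that mapped to several places are listed in a total of their own, apart from the genes, and took 4.81% to 4.97% of reads in the control libraries and 4.89% to 5.71% in the CD libraries. How many of them came from actins is not known, so the actin counts may leave out reads that 2 actins share.

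Among the proteins that line the filament, TPM1 fell with ACTB. TPM1 (ENSNVIG00000018804) encodes a tropomyosin, a coiled coil that lies along the filament and governs the access of myosin and other proteins. It stood at 383, 418 and 354 CPM in the control and 218, 200 and 190 CPM in CD, with no overlap. Its log2 fold change of −0.93 ± 0.12 (SE; edgeR FDR 0.00013) was close to that of ACTB, and the log2 ratio of TPM1 to ACTB changed by −0.02 ± 0.18 (SE; exact permutation p = 1), with libraries of both groups mixed. A change of the ratio in either direction, also one larger than this error, could therefore be missed here, as the exact permutation test cannot give a p under 0.1. The other tropomyosins were not called: TPM2, found by its description, went from 2.35 to 1.54 CPM (edgeR FDR 0.0585) and TPM3 from 691 to 606 CPM (edgeR FDR 0.181). TPM4 has no entry by symbol. Whether TPM1 differed from TPM3 in its change was not tested.

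MYL9 and TAGLN fell the most among the 10 genes. MYL9 (ENSNVIG00000014025) encodes a regulatory light chain of myosin II, whose phosphorylation switches contraction on in smooth muscle and in stress fibers. It stood at 43.1, 40.3 and 40.9 CPM in the control and 5.84, 6.63 and 7.13 CPM in CD. The libraries of each group lay close together and the groups were far apart. In CD it was 6.34-fold lower, a log2 fold change of −2.67 ± 0.15 (SE), with an FDR of 8.65e-07 in the edgeR test. It ranked number 109 from the lowest of the 12148 tested genes. Against ACTB in the same library MYL9 was still 3.37-fold lower, a log2 difference of −1.75 ± 0.040 (SE), so its reads fell by more than those of ACTB.

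TAGLN (ENSNVIG00000005834) encodes transgelin, or SM22α, an actin-binding protein widely used as an early marker of smooth muscle. It had 48, 51 and 48 reads in the control and 9, 8 and 6 in CD, that is 3.44, 3.69 and 2.64 CPM against 0.553, 0.491 and 0.432 CPM. Even the lowest control library exceeded the highest CD library several times over. Its log2 fold change was −2.69 ± 0.28 (SE) (edgeR FDR 4.28e-05), given as a description because the gene passed the filter through the control libraries only. The ratio of TAGLN to ACTB fell by 1.73 ± 0.26 (SE) on the log2 scale. TAGLN2 has no entry by symbol, and TAGLN3 had too few reads to be tested.

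The 2 other regulatory light chains measured were not lower. MYL12A, which encodes a regulatory light chain of non-muscle myosin, stood at 139 ± 5.55 CPM in the control and 160 CPM in CD and was not called (log2 fold change 0.20, edgeR FDR 0.216). MYL12B, its near copy, was higher, at 345 against 251 CPM (log2 fold change 0.46 ± 0.15 SE, edgeR FDR 0.0265), and passed in 11 of 14 alternative fits. MYL12A and MYL12B are nearly alike in sequence, so their counts may likewise leave out shared reads.

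CALD1 and CNN1 went the other way. CALD1 (ENSNVIG00000022676) encodes caldesmon, which binds actin, myosin, tropomyosin and calmodulin and restrains the sliding of filaments. It stood at 45.9, 46.9 and 40.8 CPM in the control and 78.3, 64.4 and 57.3 CPM in CD. All CD libraries were higher than all controls, with CD replicate 1 the highest. The log2 fold change was 0.58 ± 0.14 (SE), with an FDR of 0.00724 in the edgeR test, and it was called in all 14 alternative fits, from 0.46 to 0.64. Against ACTB in the same library it was 2.79-fold higher.

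CNN1 (ENSNVIG00000003083) encodes calponin 1, a thin filament protein of differentiated smooth muscle. It was barely detected, with 3, 2 and 0 reads in the control and 17, 19 and 14 in CD, or 0.215, 0.145 and 0 CPM against 1.04, 1.17 and 1.01 CPM. The groups did not overlap, and the 3 CD libraries differed little from each other. Over the summed libraries these were 5 reads against 50, a depth-adjusted ratio of 9.89 with a 95% exact (Clopper-Pearson) interval of 3.97 to 31.8, which covers counting error only. The fitted log2 fold change was 3.20 ± 0.56 (SE; edgeR FDR 0.00111) and ranged from 2.52 without control replicate 3, the library with 0 reads, to 3.93 without control replicate 1. As CNN1 passed the filter through the CD libraries only, this value is a description. Its size is known less well than the interval above, which leaves out the spread between libraries.

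The calponins split. CNN3, the acidic calponin of non-muscle cells, found by its description, was higher in CD at 195 ± 3.57 against 93.1 ± 0.574 CPM (log2 fold change 1.07 ± 0.10 SE, edgeR FDR 2.13e-05). CNN2, the calponin of many tissues, was lower at 97.9 against 167 CPM (log2 fold change −0.77 ± 0.13 SE, edgeR FDR 0.000708). The log2 ratio of CNN1 to CNN3 was higher in CD by 2.29 ± 0.99 (SE), without overlap, but it rests on few reads of CNN1 and was 1.31 without control replicate 3.

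The α-actinins crosslink actin filaments in stress fibers and at adhesions. ACTN1 (ENSNVIG00000009660) stood at 707, 648 and 713 CPM in the control and 529, 576 and 470 CPM in CD. The groups did not overlap, although control replicate 2 and CD replicate 2 were not far apart. The log2 fold change of −0.39 ± 0.12 (SE) had an FDR of 0.0212 in the edgeR test. Of the 7 calls this one was lost most often, and ACTN1 passed in 11 of 14 alternative fits. It was not called without control replicate 1 (log2 fold change −0.38, edgeR FDR 0.0896) or without control replicate 3 (−0.37, edgeR FDR 0.0801), though these log2 fold changes were close to the reported one. The remaining fit that lost the call used the replicate number as a block (log2 fold change −0.40, edgeR FDR 0.0507). ACTN4 (ENSNVIG00000009607) stood at 1040, 949 and 1100 CPM in the control and 907, 974 and 796 CPM in CD, where CD replicate 2 lay above the lowest control. Its log2 fold change of −0.21 ± 0.13 (SE; edgeR FDR 0.197) was not called in this or any of 14 alternative fits.

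Between these paralogs, the log2 ratio of ACTN1 to ACTN4 was −0.56, −0.55 and −0.63 in the control and −0.78, −0.76 and −0.76 in CD. The ratio was lower in every CD library, 1.14-fold, with a difference of −0.19 ± 0.025 (SE; exact permutation p = 0.1). Both ACTN1 and ACTN4 were higher against ACTB, 1.43-fold and 1.62-fold. ACTN2, the α-actinin of heart and skeletal muscle, was at 3.80 CPM in the control and 2.75 CPM in CD (log2 fold change −0.48, edgeR FDR 0.0893), and ACTN3 had at most 3 reads in a library.

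**Figure D3:**
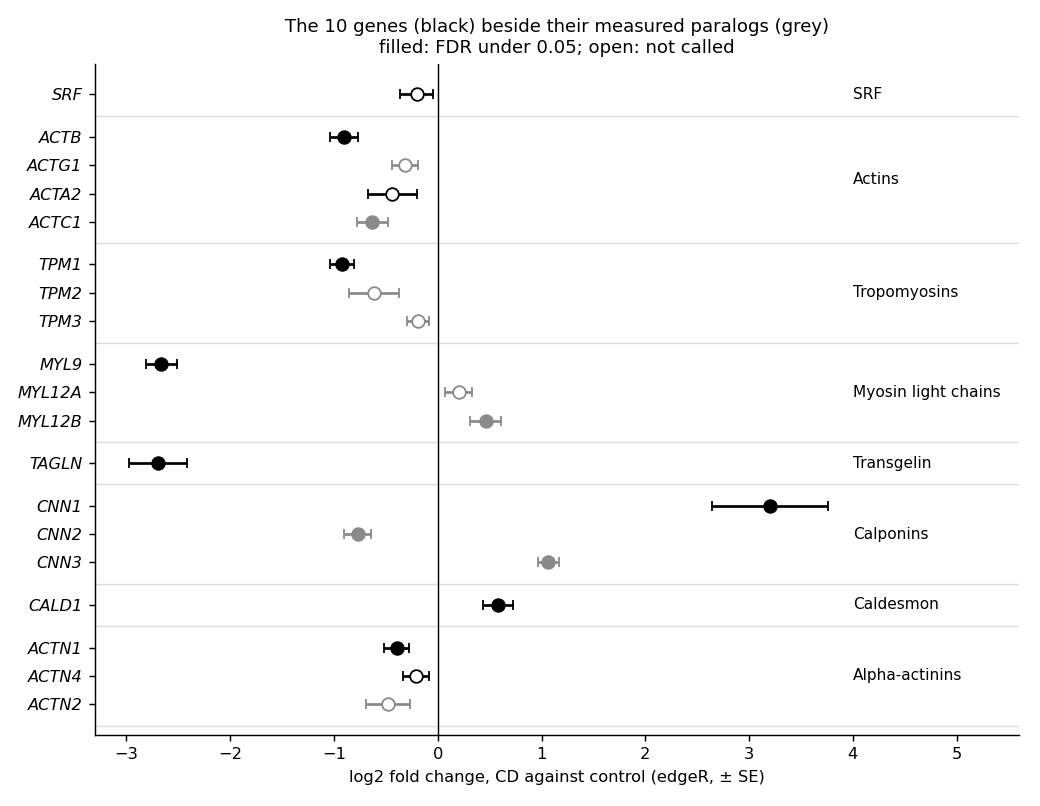
Log2 fold change of CD against control from edgeR, with its SE as whiskers, for the 10 genes (black) and their tested paralogs (grey) in rows by protein family, filled where the FDR was under 0.05. ACTB and TPM1 lie lower than their tested paralogs, MYL9 lies at −2.67 while MYL12B lies at 0.46, and CNN1 and CNN3 lie to the right of 0 while CNN2 lies to the left.

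Among the paralogs, 15 were listed, 13 had an entry and 9 were tested. Of the 9 tested, 2 were higher (CNN3 and MYL12B), 2 were lower (CNN2 and ACTC1) and 5 were not called, with a median log2 fold change of −0.31. Of all tested genes, 24.8% were higher and 22.9% lower. Without CD replicate 3, the number of lower paralogs was 6 instead of 2, and that of all lower genes was 3606 instead of 2784. Without any 1 of the control libraries the number of higher paralogs was 1, and that of all higher genes was 2216 to 2391 instead of 3016.

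SRF itself was not called. SRF (ENSNVIG00000011434) stood at 47.6, 39.0 and 48.6 CPM in the control and at 42.8, 42.8 and 31.9 CPM in CD, and the lowest control library lay below 2 of the CD libraries. The log2 fold change of −0.20 ± 0.16 (SE) had an FDR of 0.309 in the edgeR test, and no alternative fit called it, with values from −0.30 to −0.11. This does not show equal levels. Against ACTB, SRF was 1.62-fold higher in CD (a log2 difference of 0.70 ± 0.22, SE), without overlap.

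The SRF cofactors and their regulators are 11 genes, of which 9 were tested. Of these, 1 was higher, 2 were lower and 6 were not called, against 47.7% called of all tested genes, and the median log2 fold change was −0.12. The number of higher genes was 0 without control replicate 1 or 2 and 2 without CD replicate 3, and that of lower genes was 3 without CD replicate 1. MRTFA, found by its description, encodes the actin-sensing cofactor MRTF-A and stood at 94.4 CPM in the control and 87.0 CPM in CD (log2 fold change −0.12, edgeR FDR 0.541). MRTFB stood at 10.3, 13.4 and 13.2 CPM in the control and 14.7, 8.65 and 2.16 CPM in CD, so that its CD libraries straddled the controls (log2 fold change −0.52 ± 0.48 SE, FDR 0.393 by edgeR). This value hung on single libraries, at −0.12 without CD replicate 3 and −1.16 (edgeR FDR 0.046) without CD replicate 1, the one of 14 alternative fits that called MRTFB. MYOCD, the cofactor of heart and smooth muscle, reached at most 0.072 CPM. Of the ternary complex factors, ELK3 was higher at 6.34 against 3.86 CPM (log2 fold change 0.71, edgeR FDR 0.013), and ELK1 and ELK4 were not called (FDR 0.326 and 0.868 by edgeR). IPO9 was lower at 79.8 against 179 CPM (log2 fold change −1.16 ± 0.13 SE, edgeR FDR 6.96e-05). Its product importin-9 takes part in carrying actin into the nucleus.

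Genes that set the balance of free and filamentous actin were listed as well. Of 20 listed genes of actin turnover, 15 were tested. Of these, 13 were higher and 0 lower, against 24.8% and 22.9% of all tested genes, and their median log2 fold change was 0.73. The number of higher genes was 10 to 14 over the alternative fits. The lowest of the 15 was 0.21, so 0 were lower also at an unadjusted p under 0.05, and 0 were called lower by DESeq2 or by limma-voom. DSTN, which encodes destrin, a protein that severs filaments and binds monomers, was the highest, at 42.9 against 11.7 CPM (log2 fold change 1.87 ± 0.15 SE, edgeR FDR 7.82e-06). CFL1, PFN1, ARPC2 and TWF1 have no entry by symbol and were not analysed here.

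Other parts of the contraction machinery went both ways. Of 15 listed genes, 9 were tested, 3 were higher, 3 were lower and 3 were not called, against 24.8% higher and 22.9% lower of all tested genes. The median log2 fold change of −0.33 ranged from −0.35 to 0.08 over the alternative fits. In the reported fit it was the value of MYH11, which had 42 reads in the control libraries together and 33 in CD. PPP1CB, the catalytic subunit of the phosphatase that removes the phosphate from myosin light chains, was higher at 220 against 100 CPM (log2 fold change 1.13 ± 0.15 SE, edgeR FDR 0.000216). MYH14, a heavy chain of non-muscle myosin, was lower at 32.8 against 60.2 CPM (log2 fold change −0.88 ± 0.14 SE, edgeR FDR 0.000505). The other lower genes were the myosin heavy chains MYH9 and MYH10 (log2 fold change −0.66 and −0.80, edgeR FDR 0.0191 and 0.00248). The other higher ones were MYL6 and PPP1R12A (log2 fold change 0.61 and 0.74, edgeR FDR 0.0188 and 0.00527).

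Of 16 other known targets of MRTF and SRF, 14 were tested, 7 were higher, 1 was lower and 6 were not called, with a median log2 fold change of 0.40. PDLIM7, a PDZ and LIM domain protein of actin filaments, was higher at 275 against 76.0 CPM (log2 fold change 1.86 ± 0.11 SE, edgeR FDR 1.41e-06). CCN2, which encodes connective tissue growth factor and is also a target of YAP, was lower at 1.89 against 5.02 CPM (log2 fold change −1.40 ± 0.21 SE, edgeR FDR 0.000393). With DESeq2, limma-voom, DESeq2 size factors or no filter on low counts, 5 of these targets were higher instead of 7, as FHL1 and FHL2, LIM domain proteins named after their values were seen, lie near the threshold (edgeR FDR 0.0428 and 0.0448) and passed in 3 of 13 and 4 of 14 alternative fits. Without control replicate 2 or 3 or CD replicate 2, 4 were higher, and without CD replicate 1 or 3, 2 were lower. Of the 9 immediate early genes served by ternary complex factors and SRF, 7 were tested, of which 5 were higher, 1 was lower and 1 was not called (median log2 fold change 0.56). One of the 5, EGR3, had 2, 4 and 9 reads in the control and 92, 95 and 34 in CD and passed the filter through the CD libraries only, so it had to differ. NR4A1, an orphan nuclear receptor, went from 1.24 to 47.7 CPM (log2 fold change 5.26 ± 0.23 SE, edgeR FDR 2.68e-07), and IER2 was lower at 35.0 against 49.6 CPM (edgeR FDR 0.0105). In this list, 3 genes were higher without control replicate 3 or CD replicate 1 or 2, and 0 were lower without control replicate 1. Of all tested genes 24.8% were higher and 22.9% lower, and the difference between these lists and the 10 genes was not tested.

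**Figure D4:**
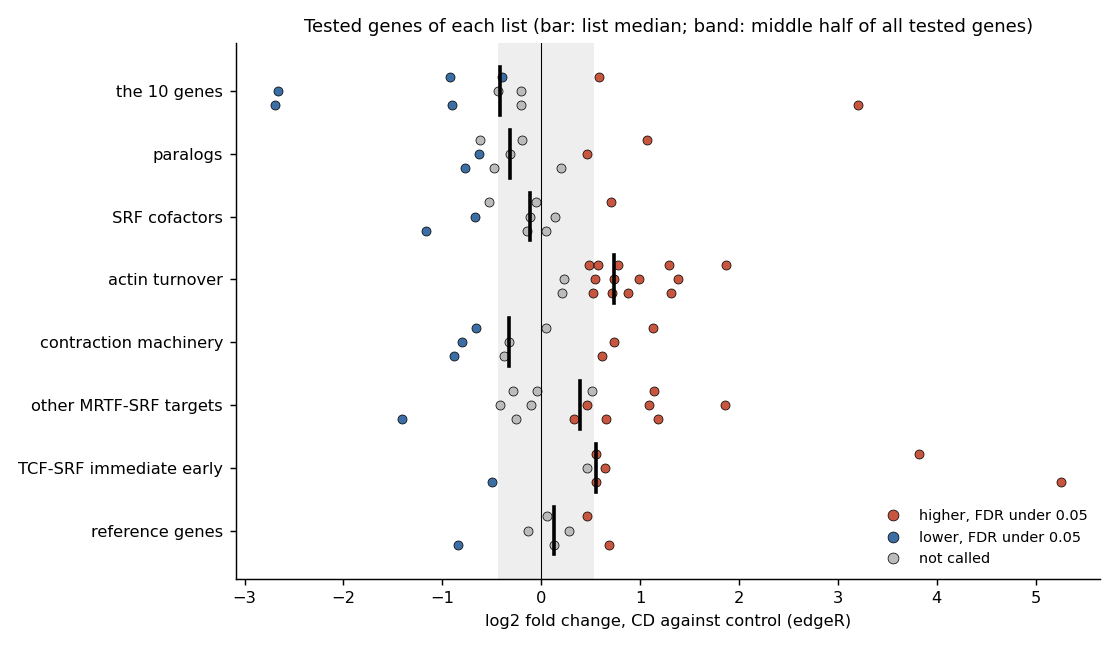
Log2 fold change of CD against control from edgeR for each tested gene of 8 lists in rows, colored by call, with the list median as a black bar and a grey band from the lower to the upper quartile of all 12148 tested genes, −0.43 to 0.52. The 10 genes have a median of −0.42 and the genes of actin turnover one of 0.73.

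Other genes often used as references were followed beside ACTB. Of 13 listed, 7 had an entry and were tested, 2 were higher, 1 was lower and 4 were not called, a share of calls near the 47.7% of all tested genes. Their median log2 fold change was 0.13. YWHAZ, which encodes a 14-3-3 protein, was the highest called at 237 against 147 CPM (log2 fold change 0.69, edgeR FDR 0.00134), and TFRC, the transferrin receptor, the only lower one at 28.6 against 51.6 CPM (log2 fold change −0.85, edgeR FDR 0.0338, called in 8 of 14 alternative fits). Without any 1 of the control libraries 1 of these genes was higher and 0 were lower, without CD replicate 2 the number of lower genes was 0, and without CD replicate 3 that of higher genes was 1. GAPDH, a common alternative to ACTB, has no entry by symbol.

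Among the CD libraries, replicate 3 lay at one end of the CD range for each of the 10 genes. It was the lowest CD library for SRF, TAGLN, CNN1, CALD1, TPM1, ACTN1 and ACTN4 and the highest for ACTB, ACTA2 and MYL9. Any 1 of 3 libraries lies at an end of the range for many genes, and the share over all tested genes was not computed. CD replicate 3 also had the most unmapped reads of the CD group (9.37% against 3.54% and 4.33%). Without it, 2 of the 10 genes were called higher and 6 lower, ACTA2 being the one added. Control replicate 1 had the most unmapped reads of all (18.4%), and among the 10 genes its removal ended only the call of ACTN1. The part of these features in the results was not tested.

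Markers of other cell types that carry some of the 10 genes were followed as well. The 5 smooth muscle markers MYH11, DES, MYOCD, LMOD1 and SMTN summed to 0.86 to 1.66 CPM in the control libraries and to 1.72 to 2.16 CPM in the CD libraries, and MYOCD was at 0 in 1 control library and 2 CD libraries. Within this sum, DES (desmin) had 6 reads in the control libraries together and 34 in CD, and SMTN (smoothelin) had 3 and 15, both without overlap and higher in CD as CNN1 was. MYH11, smooth muscle myosin heavy chain, had 42 and 33 reads, with overlap. Of 8 mesenchymal markers, 6 were tested, 4 were lower, against 22.9% of all tested genes, and 2 were not called. The 2 below the filter had more reads in CD: LUM (lumican) had 7 in the control libraries together and 35 in CD, without overlap, and DCN (decorin) had 3 and 15, with overlap. COL3A1, which encodes a fibrillar collagen, was the lowest (97.3 against 29.5 CPM, log2 fold change −1.72, edgeR FDR 2.5e-05). The summed level of this list, most of it VIM, was 4260 to 4540 CPM in the control and 3920 to 4970 CPM in CD. KRT19, the one tested epithelial marker, was lower at 458 against 936 CPM (edgeR FDR 0.000274). Below the filter, CDH1 had 8 reads in the control libraries together and 18 in CD, without overlap. EPCAM had 7 and 2, with overlap. The 3 endothelial markers summed to 0.0551 to 0.0723 CPM in the control libraries and to 0.246 to 0.307 CPM in the CD libraries. PECAM1 had 0 reads in the control libraries together and 11 in CD, without overlap. CDH5 had 0 and 1 and KDR 3 and 1, both with overlap. Of the leukocyte markers, PTPRC had 0 reads in 5 of 6 libraries, while CD68, a lysosomal protein, rose from 5.45 to 19.7 CPM (log2 fold change 1.85, edgeR FDR 2.49e-05). The part of these marker genes in the changes of the 10 genes was not tested.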

How the data were processed

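The 3 control and 3 CD libraries were grouped by the sample labels. According to the study's methods, polyadenylated RNA was reverse transcribed, amplified and made into Nextera XT libraries. Per the submitters' processing notes and the methods, reads were processed with fastp 0.20.1, aligned to the mink assembly NNQGG.v01 with STAR 2.7.2a and compared with DESeq2 1.30.1 in R 4.0.3. The authors deposited raw read counts per gene, and these counts were used as they stand. The counting program and its use of strand are not given in the sources used here, so counts of overlapping, antisense and near-identical genes are uncertain. The 4 rows of read totals (unmapped, multimapped, without a feature, ambiguous), 29.3% to 47.2% of a library's reads, were left out. The deposited normalized files, the same counts divided by a factor per library with gene identifiers in another order, were not used.

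Counts were fitted over all 6 libraries with edgeR 4.0.16 in R 4.3.3 (filterByExpr with a minimum count of 10 and a minimum total count of 15, TMM, robust glmQLFit, glmQLFTest, condition as the only term), with Benjamini-Hochberg adjustment over 12148 genes and a threshold of 0.05. The standard error (SE) was the log2 fold change divided by the square root of F, and its median over tested genes was 0.18, a precision that takes in both the depth and the spread between 3 libraries per group. The script was tested on simulated data with known fold changes. The simulation gave both groups the same spread and changed few genes, unlike these data, so it checks the code only. Ratios within libraries used a pseudocount of 0.5 and an exact two-sided permutation test.

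Alternatives were DESeq2 1.42.0, limma-voom with weights per group (limma 3.58.1), other scalings, other filters, an FDR of 0.01, each library left out and the replicate number as a block. The numbers were not taken to pair the libraries, as the deviations of same-numbered libraries correlated at −0.018, −0.44 and −0.21. The 10 genes and all lists were chosen with earlier results of these data known, and so were the tests. The genes named were the 10 genes, their measured paralogs, MYOCD and the SRF cofactors of the MRTF and ELK families, the 3 RT-qPCR genes in ratio to ACTB, the highest and the lowest called gene of every other list, and the 5 genes nearest to ACTB. VIM, EPCAM, CDH1, PTPRC, LUM, DCN and the smooth muscle and endothelial markers are named for the check of the cell type. EGR3, FHL1, FHL2, XPO6, MYH9, MYH10, MYL6 and PPP1R12A were named outside this rule, after their values were seen. Genes were matched by symbol and 5 by the table's description (ACTG1, ACTG2, CNN3, TPM2 and MRTFA). Some genes of the lists first drawn up are not reported here. The RefSeq gene table at hand is of another assembly, so no coordinates, lengths or promoter and protein sequences are given. Primer sequences were copied from the study's methods.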

Additional observations from a re-analysis of the deposited data

How the results depend on the processing

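Over the scalings, the absence of a filter, DESeq2 and limma-voom, 2 of the 10 genes were called higher and 5 lower, as in the reported fit. With a minimum of 50 counts in 3 libraries, which removes ACTA2, TAGLN and CNN1, 1 was higher and 4 were lower. At an FDR of 0.01, 2006 of all genes were higher instead of 3016 and 2036 lower instead of 2784. Of the 10 genes, 2 were higher and 4 instead of 5 lower at that threshold. Leaving out each library in turn gave 2 higher and 4 to 6 lower of the 10 genes, and 2216 to 3616 higher and 2194 to 3606 lower of all genes. With the replicate block, 2772 genes were higher and 2636 lower, and 2 of the 10 genes were higher and 4 lower. ACTN1 was the one not called (log2 fold change −0.40, edgeR FDR 0.0507), and 0 of 6 libraries correlated best with their own number. The ratio of TPM1 to ACTB changed sign, from −0.016 to 0.088 without control replicate 2, 0.017 without CD replicate 2 and 0.092 without CD replicate 3, with −0.16 to 0.092 over all libraries left out in turn. The cause was not tested. The alternatives for the other lists were added after the data were seen. Low counts limit CNN1, TAGLN and ACTA2.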

Other observations

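The genes whose profile over the 6 libraries lay nearest to that of ACTB were found by the Euclidean distance of log2 CPM centred on each gene's own mean, over all tested genes with a symbol. They were PES1 (distance 0.0542), RCL1 (0.0599), PPM1G (0.0856), PRMT1 (0.0866) and MFSD5 (0.0962). PES1, a factor of ribosome assembly, stood at 333 CPM in the control and 182 CPM in CD. PRMT1, an arginine methyltransferase, stood at 399 and 206 CPM. Their levels were chosen for likeness to ACTB, so their own changes are no separate result. None of the other 9 genes described above was among them.

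A further feature of the cofactor list was XPO6, whose product exportin-6 carries actin out of the nucleus. XPO6 stood at 236, 225 and 248 CPM in the control and was lower in every CD library, with a mean of 149 CPM (log2 fold change −0.67, edgeR FDR 0.00287). It is named together with IPO9, after its value was seen, because IPO9 and XPO6 were the 2 genes of this list that were lower.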
